A study of Mus musculus with 2 samples.

Results

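Complement is a set of proteins that mark surfaces for removal, recruit leukocytes and can open membranes. C1q, built from the chains encoded by C1qa, C1qb and C1qc, is the recognition unit of the classical pathway, and unlike most complement proteins, which come mainly from the liver, it is made largely by macrophages. C1q binding leads to the cleavage of C4 and then of C3. Factor B (Cfb) and properdin (Cfp) build and stabilize the alternative convertase that cleaves further C3, and C6 joins the membrane attack complex. Cleavage also releases the peptides C3a and C5a, which are sensed by the receptors C3ar1 and C5ar1 on myeloid cells. C5a is a strong attractant of neutrophils.

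Here 10 complement genes (C1qa, C1qb, C1qc, C4b, C3, Cfb, Cfp, C6, C3ar1 and C5ar1), chosen by symbol from the 28692 genes of the tables, were followed in GR-1+ cells by single-cell RNA sequencing. The cells came from mammary fat pad tumors of female BALB/c mice, 8 to 10 weeks old at implantation, which were treated with anti-PD1 for 2 weeks. 4T1 is a triple-negative mammary carcinoma line. The 4T1p tumors arose from the parental line, which resists anti-PD1, and the 4T1m tumors from a polyclonal derivative made with the mutagen MNNG, which responds to it. GR-1 is an epitope shared by Ly6G and Ly6C and is carried by neutrophils, monocytes and their precursors. All mice behind these libraries had received anti-PD1, so that no untreated group was compared.

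There was 1 library for each tumor type, with no replicate. How many tumors entered each is not given in the sources used here. No test between tumor types was therefore possible, and every interval given is a 95% interval for counting error only, which covers neither mice nor tumors. Intervals of levels and of ratios come from counts summed over cells and do not cover the spread between cells either. The median number of UMIs (unique molecular identifiers, 1 for each captured transcript) per barcode was 2066 for the label 4T1p and 2763 for the label 4T1m. Each median is the one that the study's methods give for the other tumor, so the libraries are called by their labels throughout, and each direction between them rests on those labels. Barcodes with 250 to 5000 genes, at most 27000 UMIs and at most 12.5% mitochondrial UMIs were kept, which left 1128 barcodes from the library labelled 4T1p and 2092 from the library labelled 4T1m; the libraries shared 0 barcodes.

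The kept cells fell into 12 clusters, built without the complement genes. By their marker genes, 5 clusters were monocytic-like (1514 cells), 4 were granulocytic-like (1274 cells), 1 was B cell-like (35 cells) and 1 was T cell-like (29 cells). Cluster 3 (368 cells) expressed all 10 monocytic markers, but its leading genes were Thbs1, Sdc1, Met, Ackr3, Lif and Tnfrsf9, of which Sdc1 is on the list of plasma cell markers. For this gene alone it was left unnamed and is reported by number, although Jchain and Mzb1, the rest of that list, had 0 UMIs in it. The 10 monocytic markers summed to 34429 CPM (UMIs of a gene per 1000000 UMIs) in monocytic-like and 823 CPM in granulocytic-like cells, and the 8 granulocytic markers to 1249 and 163142 CPM, respectively. In monocytic-like cells the epithelial, fibroblast and endothelial marker lists summed to 28.6, 34.7 and 33.3 CPM. The erythroid list summed to 14.1 CPM for the label 4T1p and 709 CPM for the label 4T1m, where 1 cell held 2606 of its 2668 UMIs.

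The 3 C1q genes lie side by side on the minus strand of chromosome 4 (GRCm38, chr4:136880129-136898803, 18.7 kb), in the order C1qb, C1qc, C1qa, with 3616 and 2851 bases between them. The sequences just before C1qb and C1qc are shown because both genes were among the 3 most abundant members. They are from the RefSeq promoter table (GRCm38.p6), written 5′ to 3′ in the direction of the gene and stopped before the first base of any annotated transcript, and capitals mark the only match to AGGAAGT, the core of sites bound by ETS factors such as PU.1, here read on the opposite strand as ACTTCCT.
C1qb, chr4:136886201-136886450, minus strand: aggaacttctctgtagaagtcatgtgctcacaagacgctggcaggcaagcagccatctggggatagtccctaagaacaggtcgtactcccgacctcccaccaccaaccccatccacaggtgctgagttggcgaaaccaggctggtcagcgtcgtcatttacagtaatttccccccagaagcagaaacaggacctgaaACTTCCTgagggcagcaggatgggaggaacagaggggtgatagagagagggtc
C1qc, chr4:136893066-136893164, minus strand: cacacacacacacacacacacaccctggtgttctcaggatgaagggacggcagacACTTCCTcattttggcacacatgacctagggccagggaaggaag
Over the 250 bases before the RefSeq start, the match lies 47 to 53 bases before the start of C1qb and 189 to 195 bases before that of C1qc. Of the 7 members with an entry in that table, 3 held the letters on either strand (C1qb, C1qc and C5ar1, which held them at 2 places), and C3, C6, Cfp and C3ar1 held none. Over all 32851 promoters in the table the share was 7.69%. Both places in C5ar1 lie past the first base of an annotated transcript, where a sequence written as above would have stopped. C1qa, C4b and Cfb had no entry. A match is a string of letters, not evidence that a factor binds.

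C1q was the most abundant product of the set and was concentrated in monocytic-like cells. Over both libraries, the 3 chains together made up 9652 CPM (95% interval 9582 to 9722) in monocytic-like cells, 2645 CPM (2597 to 2694) in cluster 3 and 221 CPM (206 to 236) in granulocytic-like cells. C1qa stood at 4581 CPM in monocytic-like and 93.4 CPM in granulocytic-like cells, C1qb at 2747 and 79.0 CPM, and C1qc at 2324 and 48.3 CPM. The log2 ratio of monocytic-like over granulocytic-like CPM was 5.62 (5.47 to 5.77) for C1qa, 5.12 (4.96 to 5.28) for C1qb and 5.59 (5.38 to 5.80) for C1qc. Monocytic-like cells were 47.0% of the kept cells and held 85.5% of all C1q UMIs. Cluster 3, with 11.4% of the cells, held 13.4%, and granulocytic-like cells, with 39.6%, held 1.03%. Of the UMIs of all genes, these groups held 46.5%, 26.6% and 24.6%, in that order. Among the monocytic-like clusters, cluster 5 alone held 51.8% of the C1q UMIs, with 9.38% of the cells and 26.9% of the UMIs of all genes.

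**Figure D1:**
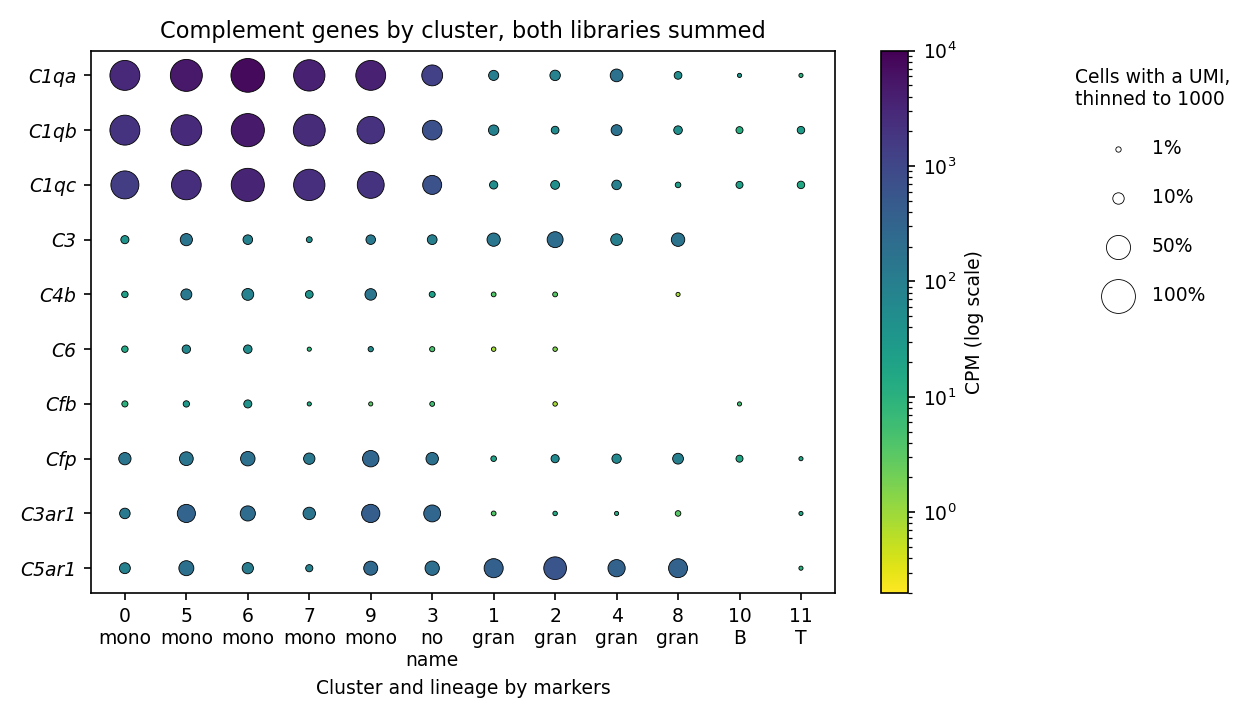
Dot plot of the 10 complement genes (rows) in the 12 clusters (columns, with the lineage given by markers), both libraries summed. Colour is the level in CPM on a log scale and dot area grows with the share of cells with a UMI after each cell was thinned to 1000 UMIs; a gene with 0 UMIs in a cluster has no dot, and the smallest dots include genes not found in any thinned cell. The C1q chains are large and dark in the monocytic-like clusters, smaller in cluster 3 and faint elsewhere, whereas C5ar1 is larger in the granulocytic-like clusters. C3 is largest in cluster 2, and its dot in monocytic-like cluster 5 is larger than that in granulocytic-like cluster 4.

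Within the monocytic-like cells the C1q level differed between clusters by more than counting error. Cluster 6, led by Cxcl9, Ccl8, Tmem176a, Tmem176b and H2-Eb1 (an interferon-induced chemokine and antigen presentation among them), had the highest summed C1q level, 15841 CPM (15526 to 16160). Cluster 5, led by Klrb1b, Spon1, Ifnb1, Ccl5, Cxcl9 and Ifit2, followed with 10134 CPM (10039 to 10229), so that Cxcl9 led in both. Then came the proliferating cluster 7 (Birc5, Ube2c and Top2a) with 8679 CPM (8446 to 8917), cluster 9 (Cd163, Cbr2, Ednrb and also Ccl8) with 7763 CPM (7577 to 7952) and cluster 0 (Fabp5, Slc25a4 and Lgals1) with 6383 CPM (6236 to 6533). None of these intervals met, but they are for UMIs summed over cells and leave out the spread between cells. The C1q share of the median cell's UMIs was 1.61% in cluster 6, 0.989% in cluster 5, 0.811% in cluster 7, 0.818% in cluster 9 and 0.618% in cluster 0. For the label 4T1p it was 1.35% in cluster 9 and 1.18% in cluster 5, and for the label 4T1m 0.577% and 0.882%. Depth did not follow the order of the summed levels: the median number of UMIs per cell was 1424 in cluster 6, 15033 in cluster 5, 1507 in cluster 7, 2900 in cluster 9 and 922 in cluster 0. The share of cells with a UMI of Ptprc, which encodes the leukocyte antigen CD45, was 26.6% for cluster 6, 27.1% for cluster 7 and 18.6% for cluster 0, while clusters 5 and 9 had 93.0% and 64.2%. The part of this in the C1q levels was not tested.

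Cluster 6 was first by detection as well. After each cell was thinned to 1000 UMIs, which left 974 of the 1514 monocytic-like and 1167 of the 1274 granulocytic-like cells, at least 1 C1q UMI was found in 91.3% (89.3 to 93.0) of monocytic-like and 15.9% (13.8 to 18.1) of granulocytic-like cells; unthinned shares were 92.1% and 31.1%. In cluster 6 the thinned share was 99.4%, and every one of its 256 cells held a C1q UMI before thinning. All 3 chains were found together in 93.3% of the thinned cells of cluster 6, 72.5% of cluster 7, 70.7% of cluster 5, 57.0% of cluster 0 and 48.6% of cluster 9. In cluster 3 the cells were divided: 52.4% of its 361 thinned cells held no C1q UMI, and 18.3% held all 3 chains. Its median cell devoted 0.0321% of its UMIs to C1q and 34.0% of its cells had no C1q UMI before thinning, whereas in cluster 5, where the median depth (15033 UMIs) was also high (11252 in cluster 3), the median was 0.989% and 6.95% of cells had none.

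**Figure D2:**
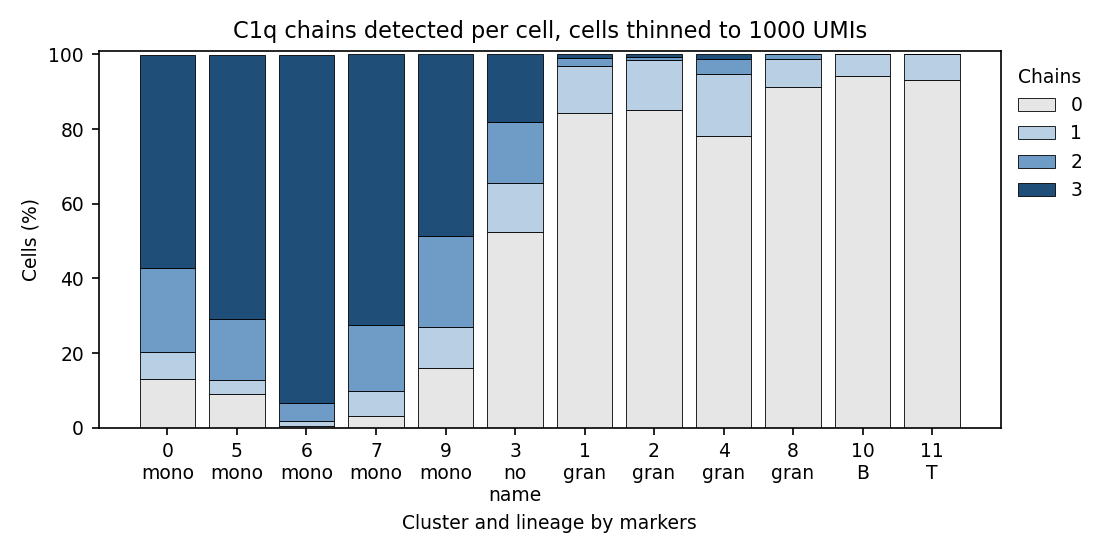
Stacked bars of the share of cells (%) with 0, 1, 2 or 3 C1q chains detected, by cluster, after each cell was thinned to 1000 UMIs, both libraries together. Cells with all 3 chains make up 93.3% of cluster 6, 18.3% of cluster 3 and at most 1.23% of any granulocytic-like cluster.

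C1qa was the most frequent chain in each monocytic-like cluster. Of the C1q UMIs in monocytic-like cells, 47.5% came from C1qa, 28.5% from C1qb and 24.1% from C1qc; these are shares of tags from transcript 3′ ends, which are not scaled by length and can differ between genes in capture. The mix differed between clusters by more than counting error. Over both libraries, cluster 7 had the lowest part from C1qa of these clusters, 42.5% (41.2 to 43.9). It also had the highest part from C1qc, 27.3% (26.1 to 28.5). These intervals overlapped those of cluster 0 for C1qa and of cluster 9 for C1qc. The order rested on the library labelled 4T1m, in which C1qc made up 30.5% (28.7 to 32.3) of cluster 7. For the label 4T1p, C1qc made up 24.3% (22.7 to 25.9) of cluster 7, below cluster 9, with overlapping intervals. The C1qa part for the label 4T1p was 44.6% in both cluster 7 and cluster 0. In cluster 0 of both libraries together, C1qa made up 44.6% (43.5 to 45.8) and C1qb 32.2% (31.1 to 33.3). In cluster 6, C1qb made up 30.3% (29.3 to 31.2) and C1qc 21.8% (20.9 to 22.6), and in cluster 9 C1qc made up 25.9% (24.8 to 27.0).

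The C1q UMIs of granulocytic-like cells were set beside those of monocytic transcripts. Per 100 UMIs of the 10 monocytic markers, C1q gave 28.0 UMIs (27.8 to 28.3) in monocytic-like cells and 26.8 (24.9 to 28.9) in granulocytic-like cells. For the label 4T1p alone these values were 27.5 and 29.7 (25.5 to 34.4). For the label 4T1m alone they were 28.9 (28.5 to 29.3) and 25.9 (23.7 to 28.3). The clusters did not share one value: it ranged from 24.7 in cluster 5 to 51.1 (49.4 to 52.9) in cluster 7 among the monocytic-like, and from 19.6 (16.2 to 23.5) in cluster 8 to 39.1 (33.7 to 45.2) in cluster 4 among the granulocytic-like clusters. In B cell-like cells, which carry Cd74 and H2-Ab1 of that list themselves, the value was 0.417. The mix of chains was not the same, since C1qb made up 35.8% (32.6 to 39.1) of C1q UMIs in granulocytic-like cells. The 35 B cell-like cells, which should lack C1q, had 66.8 CPM (34.5 to 117), a thinned share of 5.71% and a median of 3803 UMIs per cell, and the 29 T cell-like cells 53.2 CPM (25.5 to 97.8), 6.90% and 5488 UMIs. The granulocytic-like share of 15.9%, at a median of 2534 UMIs per cell, lies inside the B cell-like interval (0.700 to 19.2), while the level of 221 CPM lies above the B cell-like and T cell-like intervals. With 35 B cell-like cells the interval of the share is wide, and a share inside it does not show whether the UMIs are background. The source of the C1q UMIs in granulocytic-like cells was not tested. The UMIs were unevenly spread: 1 granulocytic-like cell of cluster 4 had 60 C1q UMIs of the 256 in that cluster.

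C4b, which encodes complement C4, the substrate that follows C1q, was found in fewer cells and in the same lineage. Its level was 105 CPM (98.0 to 113) in monocytic-like and 2.27 CPM (1.04 to 4.30) in granulocytic-like cells, with 792 and 9 UMIs, and its thinned share was 6.88% and 0.343%. Cluster 9 (149 CPM, 124 to 177) and cluster 5 (129 CPM, 119 to 140) were highest and did not differ beyond counting error; cluster 6 had 87.3 CPM (65.4 to 114), and clusters 7 and 0 had 39.7 and 23.3 CPM. Cluster 4 had 0 UMIs in 303 cells. C4b is nearly identical in sequence to C4a, which had no entry among the genes measured, and reads that both could give make the C4b level uncertain.

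C3, the protein on which all complement pathways converge, did not follow C1q. Its level was 163 CPM (151 to 176) in granulocytic-like and 121 CPM (113 to 129) in monocytic-like cells, a log2 ratio of -0.44 (-0.58 to -0.29), and after thinning a C3 UMI was found in 15.6% (13.6 to 17.8) of granulocytic-like and 6.78% (5.28 to 8.54) of monocytic-like cells. The order of the clusters by level mixed both lineages. Cluster 2, led by Mirt1, Hdc, G0s2 and Irg1, was highest with 214 CPM (188 to 242), followed by cluster 8 (Camp, Ngp and Ltf, which encode neutrophil granule proteins) with 164 CPM (142 to 190), monocytic-like cluster 5 with 157 CPM (145 to 169) and cluster 1 with 143 CPM (121 to 168), and the intervals of neighbours in this order overlapped. At the other end cluster 7 had 46.3 CPM (30.7 to 66.9) and cluster 0 had 36.7 CPM (26.3 to 49.8). In cluster 5 the cells were deep and 57.3% held a C3 UMI unthinned, but 11.6% did after thinning, against 21.0% in cluster 2. Per 100 UMIs of the monocytic markers C3 gave 0.351 UMIs in monocytic-like and 19.9 (18.2 to 21.6) in granulocytic-like cells, in contrast to C1q. No C3 UMI was found in the 35 B cell-like and 29 T cell-like cells, which allows levels of up to 16.7 and 15.9 CPM (3 counts).

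The genes of the alternative pathway differed from each other. Cfb was rare, with 197 UMIs in all kept cells; 171 were in monocytic-like cells (22.7 CPM, 19.4 to 26.4), 24 in cluster 3 and 1 in granulocytic-like cells (0.252 CPM). Cluster 6 had 39.5 CPM (25.3 to 58.8) and cluster 5 had 28.8 CPM (23.9 to 34.3), whereas cluster 9, which was high in C4b and C3ar1, had 3 Cfb UMIs (3.52 CPM, 0.726 to 10.3). Cfp was found in both lineages, with 166 CPM (156 to 175) in monocytic-like and 60.7 CPM (53.2 to 68.8) in granulocytic-like cells. Cluster 9 was highest with 282 CPM (247 to 320), above cluster 3 with 194 CPM (181 to 208) and cluster 6 with 186 CPM (153 to 224). Among the granulocytic-like clusters Cfp differed as well: cluster 8 had 98.3 CPM (81.0 to 118), clusters 2 and 4 had 61.3 and 60.4 CPM, and cluster 1 had 19.6 CPM. C6, the only member of the membrane attack complex in the set, had 373 UMIs in monocytic-like cells (49.5 CPM, 44.6 to 54.8) and 3 in granulocytic-like cells. It was near one level in clusters 5, 9 and 6 (62.8, 54.0 and 52.7 CPM, with overlapping intervals) and lower in cluster 0 (15.2 CPM, 8.86 to 24.4), cluster 7 (8.26 CPM, 2.68 to 19.3) and cluster 3 (4.64 CPM, 2.83 to 7.17).

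The receptors for C3a and C5a were divided between the lineages. C3ar1 stood at 281 CPM (269 to 293) in monocytic-like and 8.06 CPM (5.51 to 11.4) in granulocytic-like cells, a log2 ratio of 5.12 (4.62 to 5.68); 12 of its 32 UMIs in granulocytic-like cells lay in 1 cell. C5ar1 stood at 430 CPM (410 to 451) in granulocytic-like and 169 CPM (160 to 178) in monocytic-like cells, a log2 ratio of -1.35 (-1.45 to -1.24). After thinning, C3ar1 was found in 18.6% of monocytic-like and 0.428% of granulocytic-like cells, and C5ar1 in 11.9% and 33.6%. C3ar1 was highest in cluster 9 (418 CPM, 375 to 464), then in cluster 5 (318 CPM, 302 to 335) and cluster 3 (299 CPM, 283 to 315), which did not differ beyond counting error, and lower in clusters 6, 7 and 0 (231, 162 and 123 CPM). C5ar1 was highest in cluster 2 (613 CPM, 569 to 660), the cluster with the most C3. It was near one level in clusters 1, 8 and 4 (382, 337 and 330 CPM, with overlapping intervals), and in the monocytic-like lineage it ranged from 81.0 CPM in cluster 7 to 266 CPM in cluster 9. B cell-like cells had 0 UMIs of both receptors. T cell-like cells had 3 UMIs of C3ar1 (15.9 CPM, 3.29 to 46.6) and 2 of C5ar1 (10.6 CPM, 1.29 to 38.4). The C3ar1 level of granulocytic-like cells, 8.06 CPM, lies inside the T cell-like interval. Among thinned monocytic-like cells, C5ar1 was found in 13.3% of the 181 cells with C3ar1 and in 11.6% of the 793 cells without it.

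**Figure D3:**
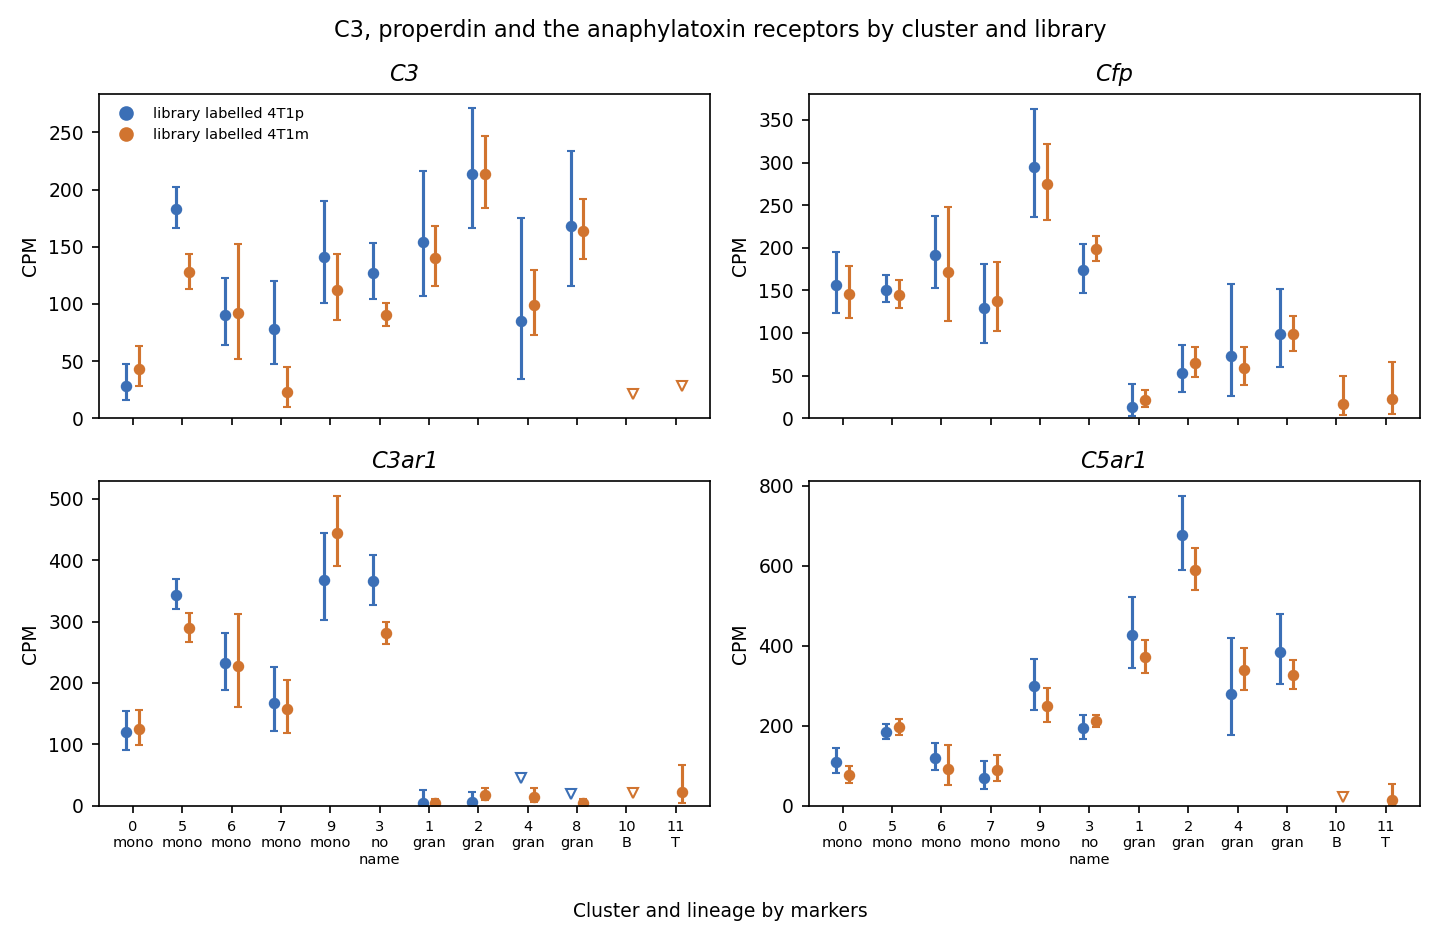
Levels (CPM, linear axis) of C3, Cfp, C3ar1 and C5ar1 by cluster, with 1 point for each library and bars for the 95% counting interval; groups of under 20 cells are left out, and an open triangle marks the upper limit where a group had 0 UMIs. C3ar1 is near 0 in all 4 granulocytic-like clusters, and C5ar1 is highest in cluster 2 in both libraries.

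Of the 9 members with at least 200 UMIs in both lineages together, 7 were more than 2-fold higher in monocytic-like cells (C1qa, C1qb, C1qc, C4b, C6, Cfp and C3ar1) and 1 was more than 2-fold lower (C5ar1); of all 5327 genes with as many UMIs, 47.6% were that much higher and 13.5% that much lower. The median log2 ratio of the members was 5.12, beside 0.88 over all genes. Against that median of all genes, Cfp was under 2-fold (0.57) and C3 more than 2-fold lower (-1.31). The same 7 members were more than 2-fold higher in each library alone, C6 with 155 against 2 UMIs in the library labelled 4T1m, which is under the minimum: the log2 ratio of C1q was 5.36 for the label 4T1p and 5.25 for the label 4T1m, that of C3ar1 6.32 and 4.87, and that of C5ar1 -1.57 and -1.28. Cfb was not counted, with 171 against 1 UMI.

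The rest of the pathway was looked up in a list of 43 further genes, 42 of which were in the tables. Beside components of the pathway, this list took in genes that are not components, such as Calr, C1qbp, Lrp1 and Cd93. Only 12 had at least 200 UMIs. The genes for the C1r and C1s proteases were low (C1ra 93 UMIs, C1rb 84, C1s1 11 and C1s2 2), as were C2 (15), Cfd (2), Hc, which encodes C5 (7), and the terminal components C7, C8a, C8b, C8g and C9 (at most 3 each); Masp1, Mbl1 and Mbl2 had 0. Of all 5327 genes counted between lineages, 47.6% were more than 2-fold higher in monocytic-like cells and 13.5% that much lower. Of the 11 genes of this list that could be counted between lineages, 8 were more than 2-fold higher in monocytic-like cells and 0 lower. Among them were Fcna and Colec12, which encode lectins, Itgax, a chain of complement receptor 4 (74.5 against 12.6 CPM), Cd93, C1qbp, Lrp1 and Calr. The chains of complement receptor 3 were not: Itgam stood at 257 CPM in monocytic-like and 346 CPM in granulocytic-like cells, and Itgb2 at 162 and 187 CPM.

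Between the libraries, C1q was lower in the library labelled 4T1m in every monocytic-like cluster. The paper, by contrast, names C1q genes among those higher in the monocytic cells enriched in 4T1m tumors. It compared regions of cells enriched in either tumor, rather than the same cluster in both, and it required a Ptprc UMI. The direction given here also rests on the labels, and each library's median UMI count is the one reported for the other tumor. With the labels exchanged, C1q would be higher for 4T1m. The part of these points in the contrast was not tested. In monocytic-like cells as a whole the summed level was 11514 CPM (11406 to 11623) for the label 4T1p against 7789 CPM (7700 to 7879) for the label 4T1m, a log2 ratio of 4T1m over 4T1p of -0.56 (-0.59 to -0.54). Within the clusters the ratio was -0.46 (cluster 0), -0.46 (cluster 5), -0.48 (cluster 6), -0.51 (cluster 7) and -0.48 (cluster 9), and each interval lay below 0. In cluster 6, for example, the level was 17149 CPM in the library labelled 4T1p (195 cells) and 12275 CPM in the library labelled 4T1m (61 cells). In cluster 3 the libraries had nearly the same summed level, 2616 CPM (2508 to 2726) and 2653 CPM (2599 to 2708). Of the chains, C1qc was higher there in the library labelled 4T1m (log2 ratio 0.18, 0.04 to 0.32), while the intervals of C1qa and C1qb spanned 0. The 10 monocytic markers moved in the same direction as C1q in the monocytic-like cells, with 41898 and 26960 CPM and a log2 ratio of -0.64 (-0.65 to -0.62). In cluster 3 the markers had a ratio of -0.52 (-0.55 to -0.50), and in the monocytic-like clusters from -0.26 in cluster 6 to -0.97 in cluster 7. Per 100 marker UMIs, C1q gave 27.5 UMIs for the label 4T1p and 28.9 for the label 4T1m in monocytic-like cells. By cluster this went both ways, with 44.3 and 60.9 in cluster 7 and 29.0 and 24.8 in cluster 6. In cluster 3 it was 15.0 and 21.9. The part of the markers in the C1q difference was not tested. The size of the ratio depended on which cells were called monocytic-like: it was -0.89 with cluster 3 counted among them, -0.89 at a clustering resolution of 0.4 in place of 0.8, and -0.84 when lineage was set cell by cell from the markers.

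**Figure D4:**
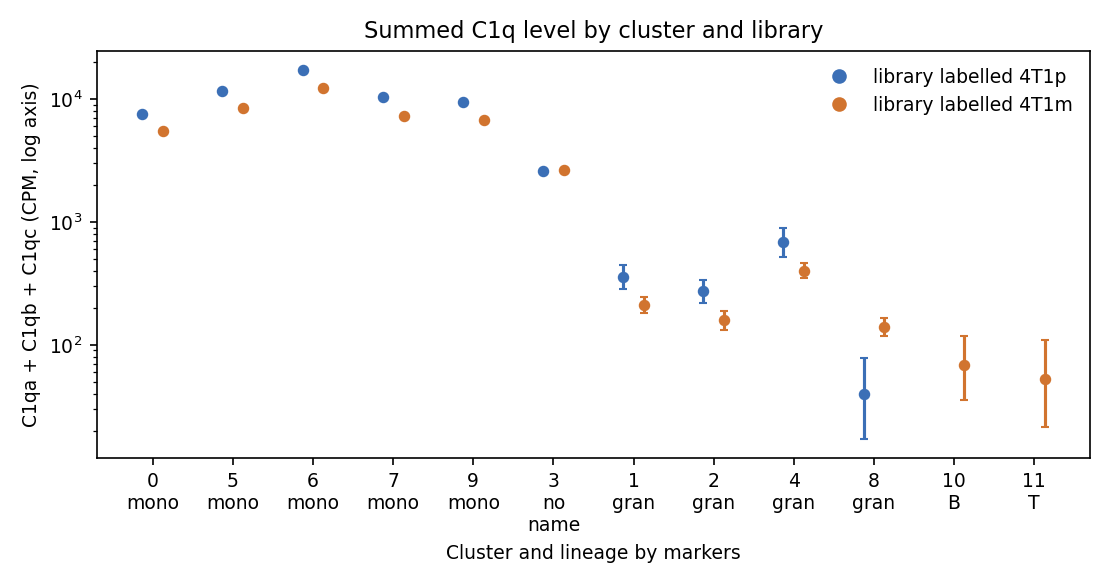
Summed level of C1qa, C1qb and C1qc (CPM, log axis) by cluster in each library. Bars are 95% counting intervals, smaller than the points in the 6 clusters at the left, and groups of under 20 cells are left out. The library labelled 4T1p lies above the library labelled 4T1m in all 5 monocytic-like clusters, and the points of cluster 3 are level.

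Detection per cell also differed. At least 1 C1q UMI was found in 94.7% (92.3 to 96.5) of the thinned monocytic-like cells of the library labelled 4T1p and 87.8% (84.6 to 90.6) of those of the library labelled 4T1m, and all 3 chains in 75.5% and 61.4%. The gap was widest in cluster 9, where 97.2% (85.5 to 99.9) and 77.5% (66.0 to 86.5) of thinned cells held C1q. The cells of that cluster also differed in depth, with medians of 1472 and 4518 UMIs, and their number after thinning was 36 and 71. In clusters 5 and 7 detection was alike (90.5% and 91.2%, 96.4% and 97.3%) although the levels differed. In cluster 5 the median cell devoted 1.18% of its UMIs to C1q for the label 4T1p and 0.882% for the label 4T1m, at median depths of 16006 and 13874 UMIs. The chains did not differ to the same extent: in monocytic-like cells the log2 ratio was -0.61 (-0.64 to -0.58) for C1qa, -0.63 (-0.67 to -0.59) for C1qb and -0.40 (-0.44 to -0.36) for C1qc.

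Of the 9 members counted in monocytic-like cells, 0 differed more than 2-fold between the libraries, beside 5.38% of 4440 genes that were more than 2-fold higher in the library labelled 4T1m and 0.878% that were more than 2-fold lower. The median log2 ratio was -0.40 for the members and 0.17 for all genes. C3 (-0.50, -0.69 to -0.30), C4b (-0.38, -0.59 to -0.18) and C6 (-0.49, -0.80 to -0.19) had intervals below 0, although C6 was at 0.01 among cells with at most 5% mitochondrial UMIs, whereas those of Cfp (-0.02, -0.18 to 0.14), C3ar1 (-0.11, -0.23 to 0.02) and C5ar1 (0.01, -0.15 to 0.17) spanned 0. By cluster, C3ar1 ranged from -0.25 to 0.27, and its interval lay below 0 only in cluster 5 (-0.25, -0.41 to -0.09). Within the clusters C4b and C6 were each lower in the library labelled 4T1m in 3 of 5, and of these the interval lay below 0 only in cluster 5 (C4b -0.43, -0.68 to -0.18, and C6 -0.50, -0.87 to -0.14). C4b was higher there in clusters 0 and 7 (0.58 and 0.84) and C6 in clusters 6 and 7 (0.51 and 0.14), with intervals that spanned 0. Over the monocytic-like cells C4b moved to -0.99 with cluster 3 counted among them. For C3 the levels were 141 CPM and 100 CPM. Within clusters the interval of its ratio lay below 0 in cluster 5 (-0.52, -0.75 to -0.29) and cluster 7 (-1.76, from 20 and 8 UMIs). The ratio was above 0 in cluster 0 (0.61, -0.37 to 1.65) and cluster 6 (0.03, -0.93 to 0.92), with intervals that spanned 0. In cluster 9 it turned from -0.33 to 0.92 without the richest cell of each library, which held 29 of 42 and 15 of 62 UMIs.

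Cfb showed the largest difference of the members. It was under the 200 UMIs needed to be counted, with 128 UMIs in the monocytic-like cells of the library labelled 4T1p (34.0 CPM, 28.4 to 40.4) and 43 in those of the library labelled 4T1m (11.4 CPM, 8.27 to 15.4), a log2 ratio of -1.57 (-2.11 to -1.07). It was lower in the library labelled 4T1m in all 5 monocytic-like clusters, with intervals below 0 in cluster 5 (90 and 35 UMIs, -1.23, -1.84 to -0.65), cluster 6 (23 and 1 UMIs) and cluster 7 (7 and 1 UMIs), and in cluster 3 (15 and 9 UMIs, -2.75, -4.12 to -1.46). No cell held more than 6 Cfb UMIs, and without the richest cell of each library the ratio in monocytic-like cells was -1.61. C4b was also lower in cluster 3, with 50 UMIs for the label 4T1p and 48 in the much larger group of the library labelled 4T1m (58.3 and 13.9 CPM, log2 ratio -2.07), but 1 cell held 27 of the 50, and without the richest cells the ratio was -1.13 (-1.89 to -0.33). C3ar1 in cluster 3 was 366 CPM (327 to 409) and 282 CPM (264 to 300), in that order.

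**Figure D5:**
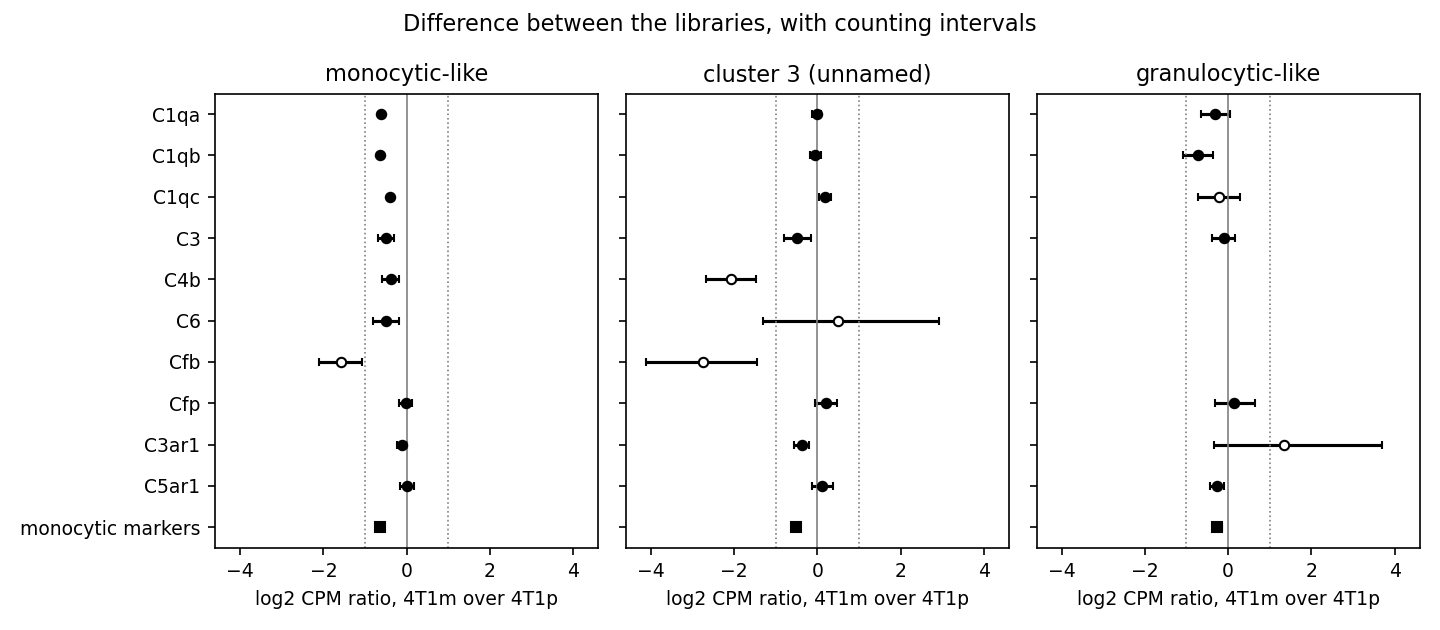
Log2 ratio of CPM, library labelled 4T1m over library labelled 4T1p, for the 10 members and for the 10 monocytic markers summed (square), in monocytic-like cells, cluster 3 and granulocytic-like cells. Bars are 95% counting intervals, filled symbols have at least 200 UMIs in the groups compared, genes with under 20 UMIs are left out, and dotted lines mark 2-fold; the C1q chains lie below 0 in monocytic-like cells and at or near 0 in cluster 3, and Cfb lies below the 2-fold line in both.

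In granulocytic-like cells 5 members could be counted (C1qa, C1qb, C3, Cfp and C5ar1) and 0 differed more than 2-fold, beside 5.12% of 1991 genes higher and 2.51% lower in the library labelled 4T1m. C3 was 174 CPM (146 to 204) and 161 CPM (147 to 175) in the libraries labelled 4T1p and 4T1m, a log2 ratio of -0.11 (-0.38 to 0.17), and was level in cluster 2 (214 and 214 CPM). C5ar1 was 498 CPM (451 to 548) against 412 CPM (390 to 435), giving a ratio on the log2 scale of -0.27 (-0.43 to -0.11), with thinned shares of 34.1% and 33.5%. Its ratio in each of the 4 granulocytic-like clusters lay between -0.24 and 0.28, with intervals that spanned 0. Cfp was 55.8 and 61.9 CPM. The C1q sum was 280 and 205 CPM (-0.45, -0.67 to -0.23), and the monocytic markers in the same cells moved in that direction too (944 and 791 CPM, -0.26, -0.37 to -0.14). In cluster 8, the cluster of granule genes, both were higher in the library labelled 4T1m. C1q had 39.5 and 139 CPM there (1.82, 0.80 to 3.06), from 8 and 132 UMIs in 22 and 137 cells, under the minimum to be counted. The markers had a log2 ratio of 1.67 (1.24 to 2.14).

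Of the genes of the further list counted in monocytic-like cells, Cd93 (log2 ratio 0.95), Fcna (0.81, 0.51 to 1.11), Itgam (0.76, 0.63 to 0.90), Lrp1 (0.58, 0.40 to 0.76) and Colec12 (0.53, 0.32 to 0.74) were higher in the library labelled 4T1m by less than 2-fold. For Itgam the levels were 191 CPM for the label 4T1p and 324 CPM for the label 4T1m. The paper, by contrast, reports higher Itgam in the monocytic region enriched in 4T1p tumors than in the region enriched in 4T1m tumors. It did not compare all monocytic-like cells, and the direction given here rests on the labels. The 4 fibroblast markers in the monocytic-like cells summed to 0.797 CPM (3 of the 4 detected) and 68.5 CPM (4 of 4), and their part in the differences between the libraries was not tested. Clu, which encodes clusterin, had 6 and 130 UMIs in the same cells of the libraries labelled 4T1p and 4T1m, in 5 and 14 cells, and was not counted. In granulocytic-like cells 0 of 3 counted genes differed more than 2-fold, beside 5.12% of 1991 genes higher and 2.51% lower in the library labelled 4T1m.

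Over the 22 groups of cluster and library with at least 20 cells, the levels of the members were set beside those of all other genes with at least 200 UMIs, on the log2(CPM + 10) scale; these groups share libraries and lineage, and the correlations describe them only. The C1q sum was most like Gatm (Pearson r 0.99), Aif1 (0.98) and Apoe (0.97), of which Apoe is one of the monocytic markers. C3ar1 was most like Itgb5 (0.98), Cmklr1 (0.97), which encodes the chemerin receptor, and Cmtm3 (0.97). C5ar1 was most like Rab20 (0.96), Ccr1 (0.95) and Lilrb4a (0.95), and C3 was most like Csf2ra (0.89), Ccr1 (0.88) and Tlr2 (0.86); the correlation of C3 with C5ar1 was 0.91. Cfp was most like Gpx1 (0.93), Lyz2 (0.92), which encodes lysozyme, and Zfhx3 (0.90). Cfb was most like H2-DMb1, Zmynd15 and Ifi44l, each at 0.87, of which Ifi44l is an interferon-induced gene. Although C3 and C5ar1 were alike over the groups, within granulocytic-like cells thinned to 1000 UMIs C5ar1 was found in 35.7% of the 182 cells with C3 and 33.2% of the 985 cells without it.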

How the data were processed

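GR-1+ cells of 4T1p and 4T1m tumors, all treated with anti-PD1, were profiled with 10x Genomics 3′ v3 chemistry, 1 library per tumor type. The authors deposited filtered matrices of raw UMI counts per gene and barcode, made with Cell Ranger on mm10 (submitters' notes; the matrix header names software version 3.1.0, the study's methods a later one). The libraries held 1641 barcodes with 9021132 UMIs (4T1p) and 2749 with 14840190 UMIs (4T1m). The filters on genes, UMIs and mitochondrial UMIs left 1128 and 2092 barcodes. Of the rest, 443 and 560 barcodes failed the mitochondrial limit. The study also required a Ptprc UMI, which 45.9% and 75.3% of kept barcodes had; this was run as an alternative.

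Cells were clustered in R 4.3.3 with Seurat 5.3.0 and sctransform 0.4.2 (3000 variable genes without complement genes, mitochondrial percent regressed, 11 principal components, Louvain resolution 0.8); 2 rRNA-derived genes were left out. Clusters were named by marker lists. Doublets were not removed; leaving out the 13 and 44 cells with the highest Scrublet scores (scanpy 1.11.5) was an alternative. Levels are UMIs summed over cells per 1000000 (CPM) with exact Poisson intervals, shares of cells have exact binomial intervals, and intervals of log2 ratios were taken from exact binomial limits on the part that either count takes of their sum (Python 3.11.15, scipy 1.17.1), at a confidence level of 95%. Detection was compared after thinning each cell to 1000 UMIs. A gene needed 200 UMIs over the groups compared to be counted, a difference was counted beyond 2-fold, and a count of 0 was given a limit of 3 counts. The ratio script was tested on simulated data.

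Named genes are the 10 members, genes of the further list with at least 200 UMIs, genes at low counts named for the pathway steps they encode, and the 3 genes most like the C1q sum, C3, Cfb, Cfp, C3ar1 and C5ar1 by Pearson correlation. Not every gene under this rule is reported here. Leading genes of a cluster have the largest fold of CPM against the remaining cells, if found in 25% or more of the cluster. Gene positions are from GENCODE vM21 (GRCm38), and promoter sequences from RefSeq. The members and lists were chosen with earlier results of these data known.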

Additional observations from a re-analysis of the deposited data

Results flagged for a closer look

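Barcodes outside the limits on genes, UMIs and mitochondrial share took no part in the comparisons and also held complement transcripts, above the limit that a count of 0 allows. In the 115 barcodes above the limits of genes or UMIs, the summed C1q level was 7531 CPM, C3 was 66.0 CPM and C5ar1 133 CPM. Each barcode was placed in a single group. The group above the mitochondrial limit held 790 barcodes, fewer than the 443 and 560 together that failed this limit, and the rest of those are in the other groups. In these 790 barcodes the levels were 3028 CPM for C1q, 96.7 CPM for C3 and 161 CPM for C5ar1. In the 265 barcodes under the minimum of 250 genes, C1q was at 323 CPM and C5ar1 at 19.5 CPM. The part of damaged cells, doublets or free RNA in these levels was not tested.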

How the results depend on the processing

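Over 16 planned settings and others chosen after seeing the data (cluster 3 counted as monocytic-like, and each group without its cell richest in the gene), 366 of 493 values moved by less than their counting interval, 126 moved by more and 1 with an interval that excluded 0 changed sign: C6 between the libraries in monocytic-like cells, -0.49 as reported, was 0.01 with at most 5% mitochondrial UMIs. Among the others, 18 values with intervals that spanned 0 also changed sign, most of all C3ar1 between the libraries in granulocytic-like cells (3 and 29 UMIs), which was 1.34 in the clustering used, -0.67 with at most 5% mitochondrial UMIs and -1.72 with log-normalization. The number of members more than 2-fold higher in monocytic-like cells, 7 as reported, ranged from 6 to 8. The log2 ratio of summed C1q between the libraries, -0.56 as reported, lay below 0 in every setting run: -0.57 with a Ptprc UMI required (645 monocytic-like cells) and at resolution 1.2, -0.59 without the highest Scrublet scores, -0.82 with at most 5% mitochondrial UMIs, -0.51 with at least 1000 UMIs per cell, -0.75 with log-normalization, -0.89 at resolution 0.4, -0.51 with complement genes kept for clustering, -0.84 with the per-cell marker rule, -0.73 centred on the median of all genes, -0.60 without mitochondrial and ribosomal genes, -0.66 as the mean of per-cell CPM, and -0.89 with cluster 3 counted. The count of members beyond 2-fold between the libraries, 0 in both lineages, was 1 in monocytic-like cells at resolution 0.4 and with cluster 3 counted (C6 lower in 4T1m in both), and with a minimum of 50 UMIs or 1 UMI (Cfb lower). In granulocytic-like cells it was 1 with the per-cell marker rule and as the mean of per-cell CPM (C1qb lower), and with a minimum of 1 UMI (C3ar1 higher, from 3 and 29 UMIs). The lower minimum counts rarer genes; otherwise the cause was not tested. No paired analysis was possible because each tumor type has 1 library, and no library could be left out. Depth limits Cfb, C6 and C4b outside monocytic-like cells.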
